A study of Homo sapiens with 30 samples.

Results

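Percoll-purified cardiomyocytes of day 31 were compared with the unpurified cultures of day 15 (D15), both made from H7, an established human embryonic stem cell line. They are 2 of 11 time points and hold 4 of the 30 libraries of the series. Members were the genes with at least 5 FPKM (fragments per kilobase of gene, scaled to the mapped fragments of the library) in one of these groups, which were 11797 of 41495 genes listed. The day 31 cells had been cultured and treated as the D15 cells were, first with CHIR99021, a GSK3 inhibitor that turns WNT signalling on (12 µM, 24 hours), next with IWP4, which blocks WNT secretion (5 µM, 2 days), and then with B27-supplemented medium, and were then enriched for cardiomyocytes by density on Percoll. Each group has 2 libraries, for which ribosomal RNA was removed from 500 ng of total RNA before 10 cycles of PCR, and reads were paired at 100 nt. The deposited table merges them into 1 FPKM value, so replicate error is unknown, no test was possible, and every difference below describes these libraries alone. A gene is called higher or lower on a gap of 1 or more in log2(FPKM + 1), which is 2-fold and understates the change of genes with low values. The step spans both the time from day 15 to day 31 and the purification, and these cannot be told apart. In such bulk RNA, fewer cells of a type and less RNA per cell cannot be told apart either. Whether the paired libraries stem from separate cultures is not stated in the labels.

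Stem cell cultures driven to the heart lineage hold cardiomyocytes beside stromal, vascular and other cells. As cardiomyocytes mature, they are known to add sarcomeres, to exchange fetal for adult isoforms of contractile proteins and to lean more on mitochondrial oxidation of fatty acids. Density separation on Percoll is known to enrich cardiomyocytes from such mixtures. Stromal cells secrete the collagens, fibronectin and proteoglycans of the extracellular matrix, and immediate early genes are the transcription factors and regulators that cells switch on within minutes of a stimulus.

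In the purified cells contractile genes, small heat shock proteins, immediate early genes and nuclear-encoded respiratory genes stood higher, and collagens and other stromal matrix genes stood lower. For the respiratory genes this depended on scale and reference. Of 44, 21 were 2-fold higher than at D15, 3 after rescaling the columns by their median ratio, and 4 against D10. The other groups depended on these choices too. The median difference was -1.28 for collagens and -0.75 for other matrix genes against D15, but 0.26 and 0.50 against D10. Sarcomere genes called higher numbered 25 against D15, 11 after that rescaling and 34 against D10. The 4 genes that mark the comparison moved apart along the line between contractile and matrix genes. MYL2, the ventricular regulatory light chain of myosin, measured 28.2 FPKM in cardiomyocytes and 3.19 FPKM at D15, and CSRP3, a muscle LIM protein of the Z-disc, 211 FPKM in cardiomyocytes and 57.3 FPKM at D15. The proteoglycan lumican (LUM) measured 16.6 FPKM in cardiomyocytes and 108 FPKM at D15, and GPC3, a cell-surface glypican, 66.4 FPKM in cardiomyocytes and 656 FPKM at D15. GPC3 had climbed through all earlier columns since D4 and stood at 497 FPKM at D10, so its day 31 value was the lowest since D4.

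Promoter sequence was set beside gene lists, over all listed genes with a promoter, whether or not they passed the limit or were called. The CArG box, the site known to be bound by serum response factor, is known from both immediate early and muscle genes. It was searched on both strands in the 250 bases before each start of RefSeq genes (GRCh38.p14, whereas the files were made on hg19). At least 1 box was found in 1.16% of 35116 promoters and in 1.44% of 27305 genes. Among genes of the lists described below, 2 of 13 immediate early genes (EGR1 and EGR2) and 6 of 34 sarcomere genes (ACTA1, ACTC1, FHL2, LDB3, MYL7 and MYOM1) held one, against 0 of 15 collagens and 0 of 27 nuclear-encoded respiratory genes with a promoter in the table. A match of letters is a description and not a bound site. Of the genes with a box, MYL7 was near equal in both groups. MYOM1 was not called either (167 FPKM in cardiomyocytes, 87.2 FPKM at D15). Other motifs were searched in the same way, each on its own, so that matches may overlap. The GATA motif AGATAA stood in 13 of 34 sarcomere, 3 of 13 immediate early, 1 of 15 collagen and 2 of 27 respiratory genes, against 11.1% of all genes, and the MEF2 site in 9, 1, 0 and 2 of these, against 3.44% of all genes. TGACGTCA, the cAMP response element, stood in 2, 2, 0 and 1 of them, against 2.03% of all genes. The windows of 2 immediate early and 2 sarcomere genes are shown because these genes were higher in cardiomyocytes and carry the box, which lies between 62 and 109 bases before the start. Letters run 5′ to 3′ on the gene's strand and end at the base before the start, with the CArG boxes in capitals.
EGR1 (chr5:138465229-138465478, plus strand): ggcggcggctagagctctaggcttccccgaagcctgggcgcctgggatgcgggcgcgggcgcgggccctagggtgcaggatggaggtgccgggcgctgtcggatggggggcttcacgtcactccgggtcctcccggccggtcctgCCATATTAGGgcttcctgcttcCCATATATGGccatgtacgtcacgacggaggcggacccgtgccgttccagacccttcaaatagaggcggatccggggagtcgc
EGR2 (chr10:62816367-62816616, minus strand): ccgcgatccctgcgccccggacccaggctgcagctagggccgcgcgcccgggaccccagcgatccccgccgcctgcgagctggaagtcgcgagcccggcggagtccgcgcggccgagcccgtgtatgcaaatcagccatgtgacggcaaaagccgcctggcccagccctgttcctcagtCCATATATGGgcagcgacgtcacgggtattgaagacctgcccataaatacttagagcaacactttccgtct
ACTC1 (chr15:34795550-34795799, minus strand): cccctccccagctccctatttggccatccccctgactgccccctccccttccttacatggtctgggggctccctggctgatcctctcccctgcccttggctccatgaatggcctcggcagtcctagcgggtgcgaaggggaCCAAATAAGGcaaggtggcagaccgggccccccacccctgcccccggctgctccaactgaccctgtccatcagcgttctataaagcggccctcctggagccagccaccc
FHL2 (chr2:105438514-105438763, minus strand): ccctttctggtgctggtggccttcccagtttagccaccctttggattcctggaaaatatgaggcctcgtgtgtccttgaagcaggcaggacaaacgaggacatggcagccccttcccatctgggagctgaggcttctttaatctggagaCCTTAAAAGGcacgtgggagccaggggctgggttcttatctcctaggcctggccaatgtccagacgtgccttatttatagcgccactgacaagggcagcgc
EGR1 was the only one of the 4 with a pair of boxes, which begin 105 and 83 bases before its start. Its level was 203 FPKM in cardiomyocytes and 20.3 FPKM at D15, and that of EGR2 was 20.2 FPKM in cardiomyocytes and 0.737 FPKM at D15. ACTC1 (cardiac actin) measured 2202 FPKM in cardiomyocytes and 827 FPKM at D15, and FHL2, a LIM protein of the Z-disc, 148 FPKM in cardiomyocytes and 30.3 FPKM at D15. ACTC1 and EGR2 have 3 starts in the table, 1 of them with a box, and FHL2 has 4, 3 of them with a box.

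Over all members, cardiomyocytes had 1393 genes 2-fold higher (11.8%) and 486 genes 2-fold lower (4.12%). For the 10523 members that code for protein these were 1186 (11.3%) and 332 (3.15%). The balance depends on the scale between the columns. The median difference of all members was 0.41 on the log2 scale (1.33-fold), 73.7% of them had a positive difference, and when the columns were rescaled by the median ratio of genes with at least 5 FPKM in both, 411 were higher and 929 lower. Counts and medians with the median of all members scaled out refer to that rescaling. The summed FPKM was 730619 in cardiomyocytes and 617580 at D15, and protein-coding genes held 64.7% of it in cardiomyocytes and 59.4% at D15. The depth of the columns is unknown. The commonest ratio of D15 to cardiomyocytes among 3616 low values was 1.41, but only 18.4% of them lay within 0.06 of it on the log2 scale, so it is a weak guide to their relative depth. The median difference was 0.67 for protein-coding genes at 100 FPKM or more and 0.39 for those at 5 to 20 FPKM. It was 0.05 at 1 to 5 FPKM and -0.27 at 0.1 to 1 FPKM, levels that include genes under the limit, so the median fell with level. Genes close to the 5 FPKM limit were AMER1 inside it (5.001 FPKM in cardiomyocytes, 2.44 FPKM at D15) and CCDC51 outside it (4.995 FPKM in cardiomyocytes, 4.03 FPKM at D15).

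**Figure D1:**
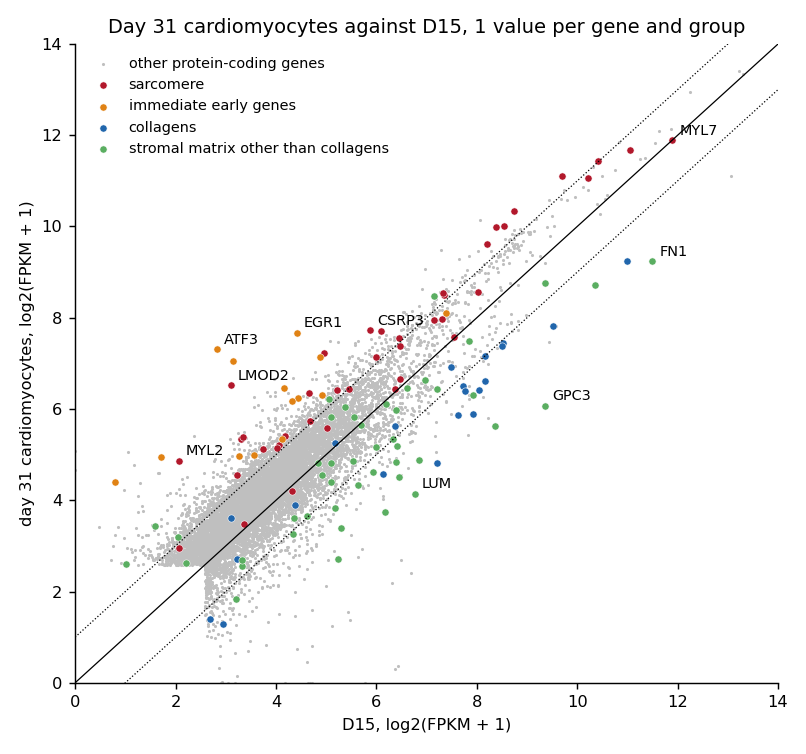
Each point is a protein-coding member, with log2(FPKM + 1) at D15 on the x axis and in day 31 cardiomyocytes on the y axis; the solid line marks equality, the dotted lines a 2-fold difference, and colours mark 4 gene lists. Sarcomere genes (red) other than TNNT1 lie on or above the line, immediate early genes (orange) above it, and most collagens (blue) and other matrix genes (green) below it, with GPC3 (66.4 FPKM in cardiomyocytes, 656 FPKM at D15) and FN1 (605 FPKM in cardiomyocytes, 2880 FPKM at D15) far below.

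The sarcomere is the repeating contractile unit of heart muscle, in which thick filaments of myosin slide along thin filaments of actin held at Z-discs. Of 45 sarcomere genes 40 passed the 5 FPKM limit, 25 were higher and 0 lower, with a median difference of 1.15 (0.74 above that of all members). With the median of all members scaled out 11 were higher and 0 lower. In 37 of the 40 the cardiomyocyte value was the highest of the 11 time points, against 21.6% of all members. MYL7, TPM1 (tropomyosin) and TNNT2 stood among the 12 most abundant protein-coding transcripts of the purified cells. MYL7 and TPM1 were among the 12 most abundant at D15 too. Together the 45 genes held 4.68% of the summed FPKM of protein-coding genes in cardiomyocytes and 3.44% at D15.

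In the thick filament, the heavy chain MYH6 (alpha) stood at 2123 FPKM in cardiomyocytes and 1180 FPKM at D15, a difference of 0.85 on the log2 scale and so not called. MYH7, the beta heavy chain of the adult ventricle, measured 360 FPKM in cardiomyocytes and 161 FPKM at D15, after 3.90 FPKM at D10. Among light chains MYL3 (ventricular) measured 783 FPKM in cardiomyocytes and 294 FPKM at D15, and MYL4 (atrial and fetal) 1298 FPKM in cardiomyocytes and 427 FPKM at D15. MYL7, the atrial regulatory light chain, was the most abundant sarcomere transcript of both groups and near equal, with 3792 FPKM in cardiomyocytes and 3786 FPKM at D15. In the thin filament 8 of 11 genes were higher. LMOD2, which lengthens thin filaments, had the largest difference of the list, with 91.1 FPKM in cardiomyocytes and 7.56 FPKM at D15 (12.0-fold), and D10 and D15 had been nearly alike (6.30 FPKM at D10). The calcium-binding troponin C TNNC1 reached 1014 FPKM in cardiomyocytes and 331 FPKM at D15, the troponin T TNNT2 2785 FPKM in cardiomyocytes and 1366 FPKM at D15, and the fetal troponin I TNNI1 1038 FPKM in cardiomyocytes and 370 FPKM at D15. TNNT1, the slow skeletal troponin T, was the one member with a negative difference (17.4 FPKM in cardiomyocytes, 18.9 FPKM at D15).

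Z-disc genes were higher in 10 of 14. TCAP (telethonin) measured 39.5 FPKM in cardiomyocytes and 8.93 FPKM at D15, and LDB3, which ties alpha-actinin to other Z-disc proteins, 209 FPKM in cardiomyocytes and 67.4 FPKM at D15. The alpha-actinin ACTN2, the chief protein of the Z-disc, was near equal, with 190 FPKM in cardiomyocytes and 187 FPKM at D15. Of 8 M-band genes and giant proteins 3 were higher, among them the ubiquitin ligase TRIM63 (41.0 FPKM in cardiomyocytes, 9.09 FPKM at D15). TTN, which encodes titin, is listed at 0 in both groups after 203 FPKM at D10, and such a 0 can be a failed estimate, so no difference is given.

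**Figure D2:**
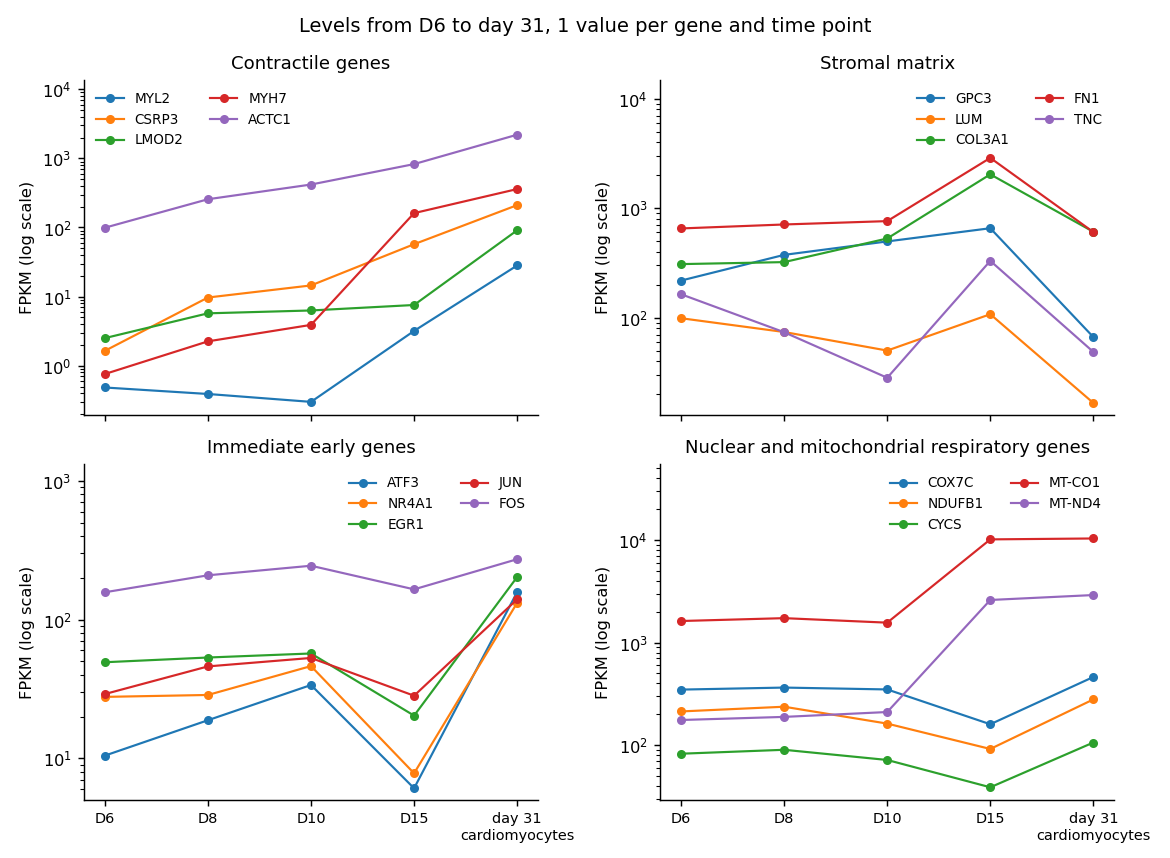
FPKM on a log scale at D6, D8, D10, D15 and in day 31 cardiomyocytes, 1 value per gene and time point, for 4 groups of genes. Contractile genes were highest at day 31, matrix genes peaked at D15, the immediate early genes ATF3, NR4A1, EGR1, JUN and FOS lay lower at D15 than at D10 and highest in cardiomyocytes, and the mitochondrial transcripts MT-CO1 and MT-ND4 were high from D15 on.

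Isoform pairs were read as ratios within a group, which do not depend on the scale between columns. The largest shift was that of the regulatory light chains: MYL2 stood at 0.00744 of MYL7 in cardiomyocytes and at 0.000842 at D15, which is 8.84 times as much, yet MYL7 remained 134 times as abundant as MYL2 in cardiomyocytes. The ratio of MYH7 to MYH6 was 0.170 in cardiomyocytes and 0.137 at D15, after 0.00773 at D10. Other fetal-to-adult pairs went the opposite way by small amounts. The adult troponin I TNNI3 stood at 0.0507 of TNNI1 in cardiomyocytes and at 0.0669 at D15, MYL3 at 0.604 of MYL4 in cardiomyocytes and at 0.688 at D15, and the skeletal actin ACTA1 at 0.0849 of ACTC1 in cardiomyocytes and at 0.105 at D15. In energy metabolism the muscle creatine kinase CKM stood at 2.92 of the brain form CKB in cardiomyocytes and at 0.579 at D15. Phospholamban (PLN), the inhibitor of the calcium pump, stood at 2.37 of the pump ATP2A2 in cardiomyocytes and at 0.475 at D15. Paralogs share sequence, and how the authors' counting split shared reads is not given in the sources used here.

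**Figure D3:**
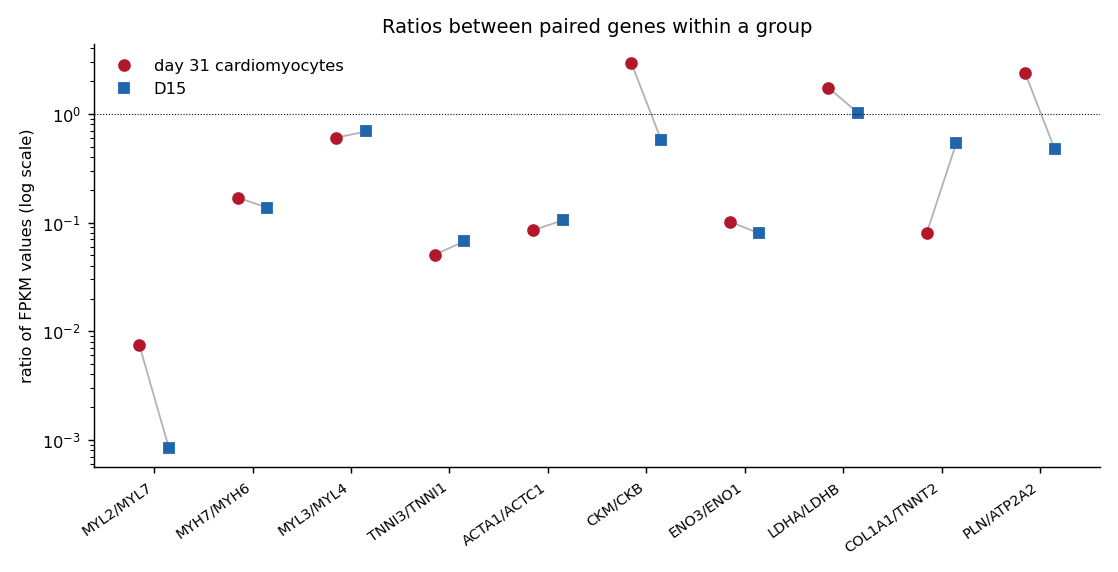
Ratio of the FPKM values of paired genes on a log axis, with day 31 cardiomyocytes (circles) left of D15 (squares) for each pair. MYL2 over MYL7 (0.00744 in cardiomyocytes, 0.000842 at D15), CKM over CKB and PLN over ATP2A2 were higher in cardiomyocytes, COL1A1 over TNNT2 was lower (0.0805 in cardiomyocytes, 0.536 at D15), and the other pairs differed by less than 2-fold.

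Of 27 calcium handling and excitation genes that passed, 3 were higher (11.1%) and 1 was lower (3.70%), close to the shares of all members (11.8% and 4.12%). Their median was 0.23, which turned to -0.19 with the median of all members scaled out. The median was 0.79 for the 11 genes of the sarcoplasmic reticulum and 0.22 for the 16 channels, pumps and exchangers. On the unscaled columns the cardiomyocyte value was the highest of the 11 time points in 17 of the 27, against 21.6% of all members. At the sarcoplasmic reticulum, the calcium store, PLN was higher, with 717 FPKM in cardiomyocytes and 156 FPKM at D15, as was SRL (15.8 FPKM in cardiomyocytes, 4.15 FPKM at D15). ATP2A2 measured 303 FPKM in cardiomyocytes and 328 FPKM at D15 and the calcium release channel RYR2 75.9 FPKM in cardiomyocytes and 64.7 FPKM at D15. The repolarizing potassium channel KCNQ1 was higher (13.8 FPKM in cardiomyocytes, 5.27 FPKM at D15). KCNIP2, a subunit of the channel of the transient outward current, was lower (8.53 FPKM in cardiomyocytes, 29.3 FPKM at D15). HCN4, the pacemaker channel, measured 57.1 FPKM in cardiomyocytes and 28.8 FPKM at D15. The inward rectifier KCNJ2, a marker of mature ventricular cells, stayed under the limit (1.1 FPKM in cardiomyocytes, 1.5 FPKM at D15).

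Of 21 genes of the intercalated disc and costamere, the contacts that couple cardiomyocytes and tie sarcomeres to the membrane, 4 were higher and 3 lower (median 0.36). With the median of all members scaled out 1 was higher and 5 were lower (median -0.06). XIRP1, a disc protein that binds actin, measured 81.2 FPKM in cardiomyocytes and 24.2 FPKM at D15, and the plakophilin PKP2 137 FPKM in cardiomyocytes and 60.9 FPKM at D15. The main gap junction gene of the ventricle, GJA1, was lower, with 26.7 FPKM in cardiomyocytes and 68.0 FPKM at D15, as were DSG2 (22.2 FPKM in cardiomyocytes, 54.0 FPKM at D15) and SGCD (1.16 FPKM in cardiomyocytes, 7.12 FPKM at D15).

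Cardiac hormones were lower. NPPA, the atrial natriuretic peptide, measured 226 FPKM in cardiomyocytes and 761 FPKM at D15, and NPPB, the B-type peptide, 78.8 FPKM in cardiomyocytes and 228 FPKM at D15. D10 had 95.9 and 73.5 FPKM of these, so for both genes the D15 value was the highest of the 11 time points. The clearance receptor NPR3 was lower too (2.94 FPKM in cardiomyocytes, 7.57 FPKM at D15), and the muscarinic receptor CHRM2 (54.4 FPKM in cardiomyocytes, 21.7 FPKM at D15) was higher. In all, 2 of the 7 hormone and receptor genes stood 2-fold higher and 3 lower (1 and 4 with the median of all members scaled out), while against D10 their median difference in cardiomyocytes was 1.81.

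Of 20 cardiac transcription factors that passed, 10 were higher and 1 was lower (median 0.91, 5 higher and 1 lower with the median of all members scaled out). IRX4, a factor of the ventricle, had 23.1 FPKM in cardiomyocytes and 2.18 FPKM at D15, and the ventricular repressor HEY2 9.95 FPKM in cardiomyocytes and 1.91 FPKM at D15. With MYL2, MYL3 and the ventricular gene LBH (284 FPKM in cardiomyocytes, 104 FPKM at D15), all 5 ventricular genes listed were higher. Their differences ran from 1.41 to 2.92. Of 7 atrial genes 2 were higher, led by MYL4 with a difference of 1.60, and 1 was lower. With the median of all members scaled out 5 of the 12 ventricular and atrial genes were higher and 1 lower. TBX3, known from the conduction system, measured 39.9 FPKM in cardiomyocytes and 9.57 FPKM at D15, and NKX2-5, a core cardiac factor, 129 FPKM in cardiomyocytes and 42.2 FPKM at D15. ISL1, which marks cardiac progenitors, was the lower one, with 2.71 FPKM in cardiomyocytes and 7.74 FPKM at D15, after 25.5 FPKM at D10.

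**Figure D4:**
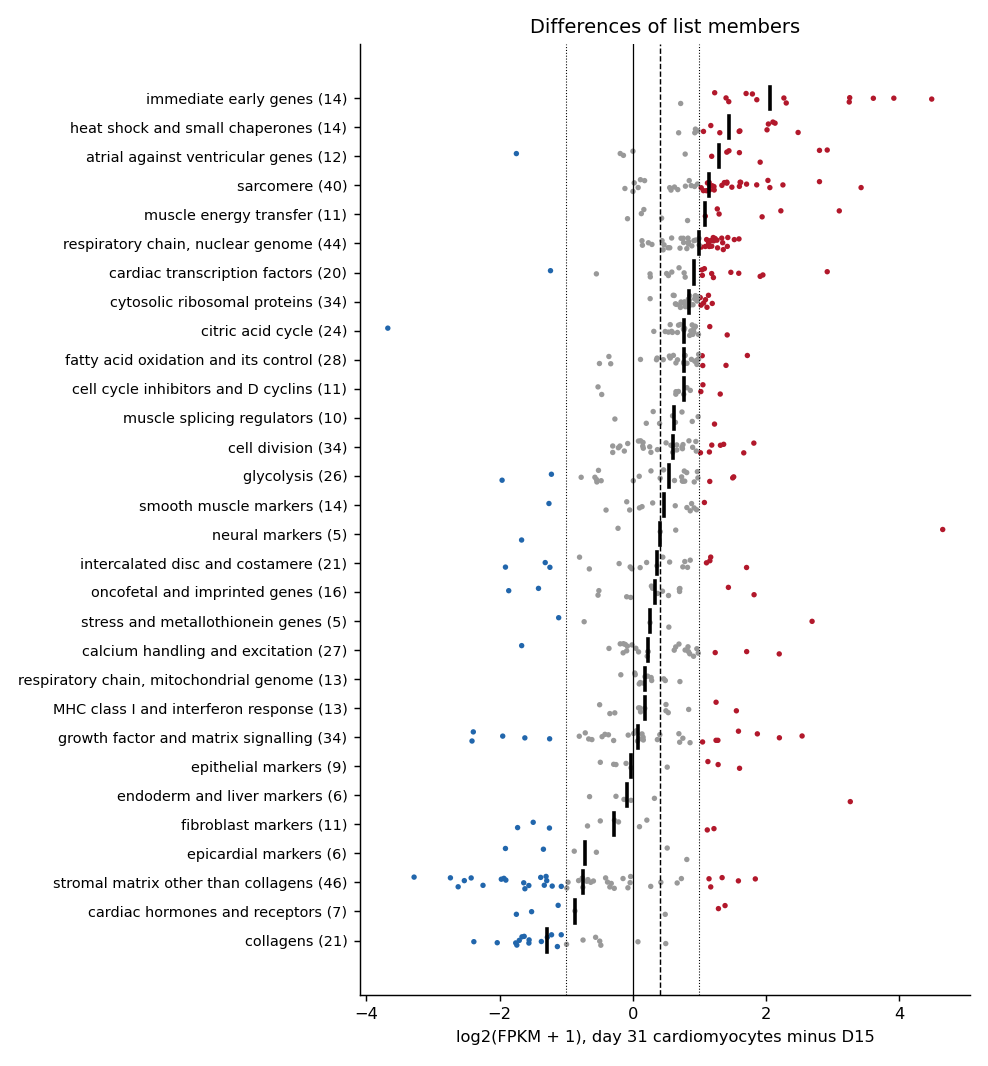
Each point is a list member with at least 5 FPKM in one of the groups, placed by its difference in log2(FPKM + 1), day 31 cardiomyocytes minus D15 (red, at least 2-fold higher; blue, at least 2-fold lower); bars are list medians, the number passed stands in brackets, the solid line marks 0, the dotted lines 2-fold and the dashed line the median of all members (0.41). Immediate early genes (2.06) and heat shock genes (1.45) have the highest medians and collagens (-1.28) the lowest among the lists drawn. These are the lists with at least 5 members passed, without the later added list of hypoxia-inducible factor targets.

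Energy metabolism showed its largest increases in muscle-specific genes. COX6A2, the muscle isoform of a cytochrome oxidase subunit, measured 19.9 FPKM in cardiomyocytes and 1.43 FPKM at D15, CKM 176 FPKM in cardiomyocytes and 36.9 FPKM at D15, and myoglobin (MB), the oxygen store of muscle, 99.4 FPKM in cardiomyocytes and 25.2 FPKM at D15. Of 11 genes of muscle energy transfer 6 were higher and 0 lower (3 and 0 with the median of all members scaled out).

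The 44 listed nuclear genes of the respiratory chain were all above their D15 value, by at least 2-fold in 21 of 44, with 0 lower and a median of 1.00. With the median of all members scaled out 3 were at least 2-fold higher. NDUFB8 and NDUFA7, also subunits of complex I, are not on the list and belong to the genes that jump between columns, described at the end. The leading genes were the following. NDUFB1 of complex I measured 279 FPKM in cardiomyocytes and 91.9 FPKM at D15, COX7C of complex IV 462 FPKM in cardiomyocytes and 160 FPKM at D15, and cytochrome c (CYCS) 106 FPKM in cardiomyocytes and 38.9 FPKM at D15. D15 was a low point for this list, with 40 of the 44 genes under their D10 value, as were 7667 of all 11797 members. In 8 of 44 the cardiomyocyte value was the highest of the series, against 21.6% of all members. The 13 genes of the mitochondrial genome took another course. None differed 2-fold between cardiomyocytes and D15, their median was 0.18 (-0.24 with the median of all members scaled out), and their summed FPKM was 55688 in cardiomyocytes and 46985 at D15. Against D10 their median difference in cardiomyocytes was 3.12, as both later groups stood high. MT-CO1 measured 10330 FPKM in cardiomyocytes and 10121 FPKM at D15, after 1563 FPKM at D10. These 13 genes held 11.8% of the summed protein-coding FPKM in cardiomyocytes, 12.8% at D15 and 1.83% at D10, which bears on every other gene's value through the common total, and its part in the differences was not tested.

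Genes of fatty acid oxidation and its control had a median of 0.77. Of 28 genes 4 were higher (14.3%, near the 11.8% of all members) and 0 lower (1 and 0 with the median of all members scaled out). The fatty acid binding protein FABP3 measured 395 FPKM in cardiomyocytes and 119 FPKM at D15, and the nuclear receptor ESRRG 29.7 FPKM in cardiomyocytes and 13.8 FPKM at D15. TFAM, which maintains the mitochondrial genome, was higher than at D15 (27.0 FPKM in cardiomyocytes, 9.62 FPKM at D15), though D10 had 33.7 FPKM. The very long chain dehydrogenase ACADVL measured 150 FPKM in cardiomyocytes and 212 FPKM at D15. The fatty acid transporter CD36 (3.0 FPKM in cardiomyocytes, 2.8 FPKM at D15) and the kinase PDK4 (0.45 FPKM in cardiomyocytes, 0.30 FPKM at D15), both abundant in adult heart, stayed under the limit. In the citric acid cycle 2 of 24 genes were higher (8.33%, against 11.8% of all members) and 1 lower (median 0.77). The higher ones were IDH3A (62.5 FPKM in cardiomyocytes, 22.8 FPKM at D15) and PDHA1 (254 FPKM in cardiomyocytes, 114 FPKM at D15). The lower one, SDHD, jumps between columns as described at the end.

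Of 26 genes of glucose uptake and glycolysis 3 were higher (11.5%, close to the 11.8% of all members) and 2 lower (median 0.54). With the median of all members scaled out 2 were higher and 3 lower. LDHA, which makes lactate, measured 653 FPKM in cardiomyocytes and 228 FPKM at D15, and TPI1 845 FPKM in cardiomyocytes and 379 FPKM at D15. The glucose transporter SLC2A1 was the largest decrease, with 176 FPKM in cardiomyocytes and 690 FPKM at D15, and the lactate exporter SLC16A3 followed (71.2 FPKM in cardiomyocytes, 167 FPKM at D15). SLC2A4, the insulin-responsive transporter of adult muscle, measured 8.73 FPKM in cardiomyocytes and 13.1 FPKM at D15, a difference under 2-fold. Among enzymes, the hexokinase HK2 (54.1 FPKM in cardiomyocytes, 79.5 FPKM at D15) and the neuronal enolase ENO2 (76.4 FPKM in cardiomyocytes, 114 FPKM at D15) also had negative differences under 2-fold. D10 had 99.1 FPKM of SLC2A1 and 33.3 FPKM of SLC16A3, so these decreases hold against D15 and reverse against D10.

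Stromal matrix was lower in the purified cells. Of 21 collagen genes that passed 14 were lower and 0 higher, with a median of -1.28 (16 and 0 with the median of all members scaled out). Of the 21, 17 had their highest value of the series at D15, against 9.99% of all members. COL3A1 and COL1A1, the main fibrillar collagens of heart stroma, measured 609 and 224 FPKM in cardiomyocytes, against 2037 and 733 FPKM at D15. COL6A3, a chain of the beaded filaments around cells, showed the largest decrease (27.3 FPKM in cardiomyocytes, 147 FPKM at D15). The cartilage collagen COL2A1 measured 58.4 FPKM in cardiomyocytes and 243 FPKM at D15, and the basement membrane chain COL4A1 96.2 FPKM in cardiomyocytes and 285 FPKM at D15. COL21A1 (11.2 FPKM in cardiomyocytes, 7.64 FPKM at D15) and COL16A1 (37.3 FPKM in cardiomyocytes, 35.3 FPKM at D15) had positive differences, both under 2-fold. The levels of day 31 resembled those of D10, where COL3A1 had 529 FPKM and COL1A1 238 FPKM, and the median difference of cardiomyocytes against D10 was 0.26.

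Of 46 other matrix genes that passed 18 were lower and 5 higher (median -0.75, 27 lower and 2 higher with the median of all members scaled out). As for collagens, the difference is one from D15: against D10 the median difference of the list in cardiomyocytes was 0.50. Fibronectin (FN1), ninth in abundance among protein-coding genes at D15, measured 605 FPKM in cardiomyocytes and 2880 FPKM at D15. Tenascin C (TNC), a matrix protein of remodelling tissue, measured 48.6 FPKM in cardiomyocytes and 330 FPKM at D15, and SPARC, which binds collagen, 419 FPKM in cardiomyocytes and 1306 FPKM at D15. The collagen cross-linking enzyme LOX stood at 12.4 FPKM in cardiomyocytes and 71.1 FPKM at D15. The members that were higher were ASPN (9.82 FPKM in cardiomyocytes, 2.02 FPKM at D15), OGN (5.05 FPKM in cardiomyocytes, 1.02 FPKM at D15), THBS1 (358 FPKM in cardiomyocytes, 141 FPKM at D15), TIMP3 (74.1 FPKM in cardiomyocytes, 32.4 FPKM at D15) and FBLN5 (8.13 FPKM in cardiomyocytes, 3.13 FPKM at D15), so ASPN and OGN, small proteoglycans like LUM, went the other way from it. In summed FPKM, collagens held 0.440% of the protein-coding total in cardiomyocytes and 1.57% at D15, and the other matrix genes 0.717% in cardiomyocytes and 2.28% at D15.

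**Figure D5:**
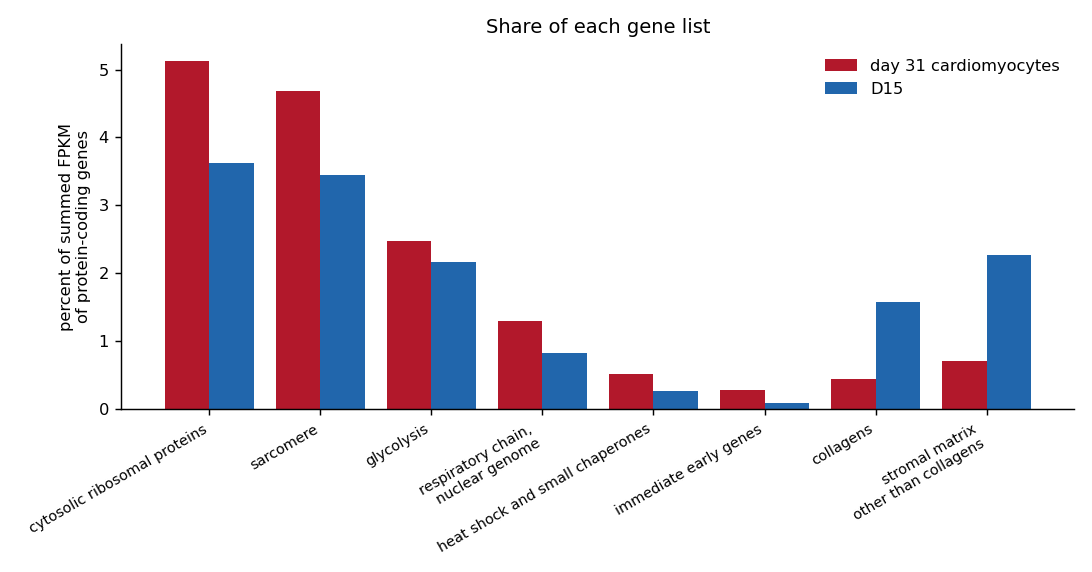
Percent of the summed FPKM of protein-coding genes held by each of 8 gene lists, with day 31 cardiomyocytes (left bar, red) beside D15 (right bar, blue); each bar is 1 value. Sarcomere genes held 4.68% in cardiomyocytes and 3.44% at D15, and collagens 0.440% in cardiomyocytes and 1.57% at D15.

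Of 11 fibroblast markers that passed 3 were lower and 2 higher (27.3% and 18.2%, against 4.12% and 11.8% of all members, median -0.28). With the median of all members scaled out 4 were lower and 0 higher (median -0.66). The receptors PDGFRB (14.3 FPKM in cardiomyocytes, 49.8 FPKM at D15), PDGFRA (31.7 FPKM in cardiomyocytes, 91.3 FPKM at D15) and DDR2 (6.84 FPKM in cardiomyocytes, 17.7 FPKM at D15) were lower, and ENG (32.8 FPKM in cardiomyocytes, 13.5 FPKM at D15) and S100A4 (20.7 FPKM in cardiomyocytes, 9.01 FPKM at D15) were higher. The summed level of all 17 listed was 552 FPKM in cardiomyocytes and 585 FPKM at D15, most of it vimentin (VIM, 408 FPKM in cardiomyocytes, 353 FPKM at D15), which many cell types express. Of 14 smooth muscle genes, which early cardiomyocytes also express, 1 was higher and 1 lower (7.14% each, against 11.8% and 4.12% of all members). These were the co-activator MYOCD (68.3 FPKM in cardiomyocytes, 31.9 FPKM at D15) and the enteric actin ACTG2 (6.84 FPKM in cardiomyocytes, 17.8 FPKM at D15). The list median was 0.47. With the median of all members scaled out 0 were higher and 1 lower (median 0.06). MYH11, the defining myosin of smooth muscle, measured 7.00 FPKM in cardiomyocytes and 9.58 FPKM at D15.

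Markers of other cell types differed in level. Only 3 of 15 endothelial markers in the table passed, and 2 were lower, the VEGF receptor FLT1 (4.65 FPKM in cardiomyocytes, 23.5 FPKM at D15) and EGFL7 (13.9 FPKM in cardiomyocytes, 41.1 FPKM at D15). The defining cadherin CDH5 measured 0.83 FPKM in cardiomyocytes and 2.3 FPKM at D15. Of 6 epicardial markers 2 were lower and 0 higher, LRRN4 (4.85 FPKM in cardiomyocytes, 21.0 FPKM at D15) and SEMA3D (16.8 FPKM in cardiomyocytes, 44.1 FPKM at D15). The keratin KRT19, which epithelia also express, was the most abundant of them (123 FPKM in cardiomyocytes, 85.6 FPKM at D15), and with the retinoic acid enzyme ALDH1A2 (7.03 FPKM in cardiomyocytes, 3.58 FPKM at D15) it had a positive difference under 2-fold. The summed level of all 13 epicardial markers was 174 FPKM in cardiomyocytes and 193 FPKM at D15, and 11 of 13 reached 1 FPKM in cardiomyocytes and 13 of 13 at D15. No marker of blood or macrophages passed (0 of 18), with PTPRC at 0.21 FPKM in cardiomyocytes and 0.66 FPKM at D15. Of 16 skeletal muscle markers 1 passed, the alpha-actinin ACTN3 (22.5 FPKM in cardiomyocytes, 8.30 FPKM at D15), and the determining factor MYOD1 is listed at 0 in cardiomyocytes and at 0.24 FPKM at D15.

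Among markers of endoderm, ALB, the serum albumin of liver, measured 17.8 FPKM in cardiomyocytes and 0.952 FPKM at D15, and had stayed under 1 FPKM in every earlier column. The other fetal liver products on the list did not follow it: AFP measured 16.1 FPKM in cardiomyocytes and 17.7 FPKM at D15, and APOA1 9.60 FPKM in cardiomyocytes and 15.6 FPKM at D15, so 1 of 6 was higher and 0 lower. TTR stayed at 0.25 FPKM in cardiomyocytes and 0.54 FPKM at D15. Among epithelial genes 3 of 9 were higher (33.3%, against 11.8% of all members) and 0 lower (median -0.03). With the median of all members scaled out 1 was higher (median -0.39). The 3 were the factor ELF3 (25.2 FPKM in cardiomyocytes, 7.62 FPKM at D15), the claudin CLDN4 (11.3 FPKM in cardiomyocytes, 4.06 FPKM at D15) and the keratin KRT7 (9.85 FPKM in cardiomyocytes, 3.97 FPKM at D15), while EPCAM measured 13.3 FPKM in cardiomyocytes and 16.1 FPKM at D15.

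Immediate early genes had the highest median of the 35 lists. Of 14 that passed 13 were higher and 0 lower (median 2.06, 1.65 above that of all members), and 11 were higher with the median of all members scaled out. ATF3, a stress-induced transcription factor, led the ranked protein-coding increases, with 158 FPKM in cardiomyocytes and 6.09 FPKM at D15 (26.0-fold). NR4A1, an orphan nuclear receptor, measured 132 FPKM in cardiomyocytes and 7.80 FPKM at D15, and its relative NR4A3 32.2 FPKM in cardiomyocytes and 1.09 FPKM at D15. The zinc finger factors EGR1, EGR2 and EGR3 had 203, 20.2 and 30.04 FPKM in cardiomyocytes, against 20.3, 0.737 and 2.26 FPKM at D15, and the first 2 of these are the genes whose CArG boxes are printed above. The AP-1 subunits JUN (140 FPKM in cardiomyocytes, 28.3 FPKM at D15) and JUNB (86.9 FPKM in cardiomyocytes, 16.8 FPKM at D15) were higher as well. FOS, their partner, was abundant in both groups and missed the 2-fold line (272 FPKM in cardiomyocytes, 165 FPKM at D15). D15 was low for this list too, with 12 of 14 genes under their D10 value, as were 7667 of all 11797 members. The day 31 value exceeded that of D10 in 13 of 14, against 6209 of the 11797 members. ATF3 had also been high in stem cells (146 FPKM), whereas NR4A3 had not passed 4.48 FPKM from hESC to D10. The purified column is the only one of the time course prepared on Percoll, so handling and age cannot be told apart for these genes.

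Heat shock proteins and small chaperones were higher in 10 of 14 and lower in 0 (median 1.45, 7 and 0 with the median of all members scaled out). HSPB7, a small heat shock protein of heart muscle, measured 538 FPKM in cardiomyocytes and 124 FPKM at D15, and HSPB3 64.9 FPKM in cardiomyocytes and 10.8 FPKM at D15. CRYAB, the alpha-B crystallin that guards the Z-disc, measured 97.8 FPKM in cardiomyocytes and 31.7 FPKM at D15. These 3 had D10 values of 15.8, 0.904 and 5.33 FPKM, under those of both later groups. The inducible HSPA1A (16.8 FPKM in cardiomyocytes, 3.05 FPKM at D15) and DNAJB1 (32.0 FPKM in cardiomyocytes, 9.84 FPKM at D15) had D10 values of 11.5 and 33.3 FPKM. HSPA1A is nearly identical to HSPA1B, so the split between them is uncertain. Among stress genes, TXNIP, an inhibitor of glucose uptake, measured 75.6 FPKM in cardiomyocytes and 10.9 FPKM at D15, and the unfolded protein response factor DDIT3 13.9 FPKM in cardiomyocytes and 31.1 FPKM at D15. MHC class I and interferon genes had 2 of 13 higher (15.4%, against 11.8% of all members) and 0 lower (1 and 0 with the median of all members scaled out).

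Some genes of DNA replication stood 2-fold higher than at D15, while the listed genes of mitosis all differed by less. Of these mitosis genes 6 of 20 had a negative difference. In S phase 7 of 14 were higher (median 0.98), led by the replication clamp PCNA (37.5 FPKM in cardiomyocytes, 9.93 FPKM at D15) and by CDC6, which loads the helicase (10.3 FPKM in cardiomyocytes, 2.57 FPKM at D15). In mitosis 0 of 20 were higher and 0 lower (median 0.16, against 0.41 for all members), with TOP2A at 36.0 FPKM in cardiomyocytes and 33.9 FPKM at D15 and CCNB1 at 20.1 FPKM in cardiomyocytes and 21.3 FPKM at D15. Of the 34 division genes that passed 33 were lower at D15 than at D10, against 7667 of all 11797 members. PCNA had 65.1 FPKM at D10, so its day 31 level lay between those of D15 and D10. With the median of all members scaled out 2 of the 34 were higher. Against D10 the median difference of the list in cardiomyocytes was -0.74. The cyclins CCND1 (30.98 FPKM in cardiomyocytes, 11.9 FPKM at D15) and CCND2 (98.2 FPKM in cardiomyocytes, 47.9 FPKM at D15) were higher, though neither by 2-fold with the median of all members scaled out, and the cell cycle inhibitor CDKN1C, an imprinted gene, measured 23.4 FPKM in cardiomyocytes and 34.1 FPKM at D15. The 34 ribosomal protein genes all exceeded their D15 value, 7 by 2-fold (20.6%, against 11.8% of all members). With the median of all members scaled out 0 did so by 2-fold. All had been lower at D15 than at D10, as had most members.

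Secreted signals and imprinted growth genes went both ways. Of 34 growth factor and matrix signalling genes 7 were higher and 5 lower (20.6% and 14.7%, against 11.8% and 4.12% of all members, median 0.08). With the median of all members scaled out 4 were higher and 8 lower (median -0.31). The secreted WNT modulator SFRP2 measured 13.7 FPKM in cardiomyocytes and 1.53 FPKM at D15, and the matricellular CYR61 173 FPKM in cardiomyocytes and 46.7 FPKM at D15. The IGF-binding IGFBP7 was lower (55.1 FPKM in cardiomyocytes, 298 FPKM at D15), as were the WNT antagonist FRZB (2.98 FPKM in cardiomyocytes, 19.95 FPKM at D15) and the activin antagonist FST (1.98 FPKM in cardiomyocytes, 10.5 FPKM at D15). Among 16 oncofetal and imprinted genes 2 were higher and 2 lower (12.5% each, against 11.8% and 4.12% of all members). The fetal growth factor IGF2 (705 FPKM in cardiomyocytes, 260 FPKM at D15) and PEG10 (168 FPKM in cardiomyocytes, 46.7 FPKM at D15) were higher. DLK1, a non-canonical NOTCH ligand (75.3 FPKM in cardiomyocytes, 277 FPKM at D15), and MEST (27.8 FPKM in cardiomyocytes, 75.8 FPKM at D15) were lower.

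Beyond the lists, the 15 largest increases among protein-coding genes above 0 at D8, D10, D15 and day 31 and without an 8-fold spike at D15 also held the calprotectin subunit S100A9 (9.61 FPKM in cardiomyocytes, 0.388 FPKM at D15), the phosphatase DUSP5, which restrains ERK (41.2 FPKM in cardiomyocytes, 4.16 FPKM at D15), the linker histone HIST1H1A (23.4 FPKM in cardiomyocytes, 2.13 FPKM at D15), the complement component C4A (15.95 FPKM in cardiomyocytes, 1.40 FPKM at D15), and FAM5C (26.5 FPKM in cardiomyocytes, 1.24 FPKM at D15). C4A is nearly identical to C4B, so its split is uncertain. The 15 largest decreases held the hormone somatostatin (SST, 1.38 FPKM in cardiomyocytes, 33.9 FPKM at D15), the granin SCG2 (3.35 FPKM in cardiomyocytes, 31.1 FPKM at D15), the angiopoietin ANGPT1 (5.77 FPKM in cardiomyocytes, 48.4 FPKM at D15), the laminin chain LAMA1 (6.63 FPKM in cardiomyocytes, 51.7 FPKM at D15), the glycoprotein hormone STC2 (21.3 FPKM in cardiomyocytes, 148 FPKM at D15), SLC7A4 (0.874 FPKM in cardiomyocytes, 10.2 FPKM at D15) and the cadherin CDH13 (1.84 FPKM in cardiomyocytes, 15.6 FPKM at D15). SST had climbed from 1.69 FPKM at D6 to 10.3 FPKM at D10, whereas SCG2 stayed under 0.46 FPKM until D10.

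The other 5 of those decreases were in genes that jump between columns. SDHD, a subunit of succinate dehydrogenase, measured 0.677 FPKM in cardiomyocytes and 20.5 FPKM at D15, but also 2.05 FPKM at D10, 27.6 FPKM at D8 and 1.17 FPKM at D6. PI4K2A, RBL1, KIAA0391 and ZMYM6 swing likewise. When genes were chosen on D1 to D10 alone, as at least 4-fold apart between every one of D1, D3, D5 and D8 and every one of D2, D4, D6 and D10, 21 were high in the first set and 4 in the second. All 21 were at least 2-fold lower in cardiomyocytes than at D15 and all 4 higher, so these columns side with one or the other set. Among them the proteasome subunit PSMA1 measured 0.290 FPKM in cardiomyocytes and 84.9 FPKM at D15, the complex I subunit NDUFB8 3.55 FPKM in cardiomyocytes and 78.8 FPKM at D15, and the NOTCH ligand JAG1 1.61 FPKM in cardiomyocytes and 43.5 FPKM at D15, while the tubulin TUBB3 measured 24.2 FPKM in cardiomyocytes and is listed at 0 at D15. SEPN1 was the third most abundant protein-coding entry at D15 with 8532 FPKM, against 2216 FPKM in cardiomyocytes and 62.4 FPKM at D10. Small RNA entries swing as well, for example MIR4313 with 0.256 FPKM in cardiomyocytes and 7911 FPKM at D15. Differences of such entries are given as values only.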

How the data were processed

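Total RNA of 4 libraries, 2 per group, was sequenced after removal of ribosomal RNA. Per the submitters' processing notes, the authors used TopHat2 2.0.8b, Bowtie2 2.1.0.0 and Cufflinks (no version given) with genome build hg19. The table deposited by the authors has FPKM values, with both libraries of each time point merged into 1 column; the unit was read from that pipeline and from the values. Annotation, strand setting and scaling between columns are not stated in the labels or the header. Python 3.11.15 and pandas 2.3.3 computed log2(FPKM + 1) in cardiomyocytes minus D15 for genes with at least 5 FPKM in one of them. The planned limma test needs the libraries apart and was not run. Depth is unknown, so no interval is given.

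Gene types came from GENCODE 29 by name, then from RefSeq symbols and synonyms, and 93.9% of the members matched. Named genes are the 15 largest increases and decreases among protein-coding genes above 0 at D8, D10, D15 and day 31 and without an 8-fold spike at D15, the 3 largest of each direction in each of 35 lists, the 4 marker genes, and abundant genes listed at 0 or spiking. Other list members were named after their values were seen, as partners or defining markers. The members and lists were chosen with earlier results of these data known. PECAM1 and PERM1 were not analysed here. A few genes that the rule names are not reported here. The calculations were tested on simulated data. Promoters came from RefSeq (GRCh38.p14).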

Additional observations from a re-analysis of the deposited data

How the results depend on the processing

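The number of genes 2-fold higher (1393) and lower (486) in cardiomyocytes depended most on the scale. With the median difference scaled out they were 411 and 929, and with equal protein-coding totals 469 and 839, so the share of higher genes among those called moved from 74.1% to 30.7% and 35.9%. With a limit of 1 FPKM, and with none, 883 genes were lower. With D10 in place of D15, 760 were lower. A pseudocount of 0.1, a limit of 10 FPKM, protein-coding genes only, leaving out genes listed at 0, and leaving out genes that alternate between columns (chosen after seeing the data) kept both counts within 1.5 times. Of 116 named genes called 2-fold, 0 reversed and 24 fell under 2-fold with the median scaled out, and 0 reversed with equal totals. The median of 9 of 34 lists changed sign with the median scaled out, and of 8 with equal totals. With D10 in place of D15, 24 reversed and 26 fell under 2-fold, and 66 of the 116 were still called. The median then changed sign in 9 of 34 lists, being 0.26 in place of -1.28 for collagens, 0.50 in place of -0.75 for other stromal matrix, 1.81 in place of -0.87 for cardiac hormones and receptors, -0.74 in place of 0.60 for cell division, -0.43 in place of 0.85 for ribosomal proteins, -0.20 in place of 0.33 for oncofetal and imprinted genes, -1.04 in place of 0.26 for stress genes, -2.45 in place of 0.46 for pluripotency and -0.23 in place of 0.06 for HOX genes. The differences, cardiomyocytes minus D10, were 1.68 for SCG2, 1.23 for NPPA, 1.08 for SLC16A3, 1.03 for SEMA3D, 0.95 for ACTG2, 0.82 for SLC2A1, 0.76 for TNC, 0.68 for SGCD, 0.48 for COL6A3, 0.42 for COL5A2, 0.22 for STMN2, 0.19 for RBL1, 0.15 for PDGFRB, 0.13 for STC2, 0.098 for NPPB and 0.0040 for NPR3, where D15 had been the higher, and -0.18 for RPS4X, -0.27 for RPS25, -0.31 for TFAM, -0.42 for TUBB3, -0.50 for RPL7, -0.64 for CCNG1, -0.67 for CDC6 and -0.78 for PCNA, where D15 had been the lower. The FPKM limit also changed the sign of list medians, in 3 of 34 lists at 1 FPKM, 2 at 10 FPKM and 6 with no limit. At 1 FPKM the median was -0.57 in place of 0.46 for pluripotency and -0.80 in place of 0.06 for HOX genes. The median of skeletal muscle markers, of which 1 passed, was -0.12 with no limit. The cause was not tested. Leaving out each library could not be done, since the table holds 1 value per group. No paired analysis was possible because the columns carry no replicate number.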

Other observations

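Targets of the hypoxia-inducible factors, a list added after the values of SLC2A1 and STC2 had been seen, did not move as one. Of 21 that passed 6 were 2-fold lower (28.6%, against 4.12% of all members) and 0 higher in cardiomyocytes than at D15 (median -0.55). SLC2A1 and STC2 are among the 6, so the choice of the list partly set this count. No rescaled count was made for it. The lower ones were LOX, STC2, SLC2A1, ANGPTL4 (3.41 FPKM in cardiomyocytes, 15.4 FPKM at D15) and the prolyl hydroxylases of collagen P4HA1 (73.1 FPKM in cardiomyocytes, 228 FPKM at D15) and P4HA2 (37.9 FPKM in cardiomyocytes, 101 FPKM at D15). VEGFA measured 234 FPKM in cardiomyocytes and 409 FPKM at D15. The feedback hydroxylases EGLN1 (50.5 FPKM in cardiomyocytes, 25.9 FPKM at D15) and EGLN3 (59.0 FPKM in cardiomyocytes, 31.6 FPKM at D15), the mitophagy receptor BNIP3 (324 FPKM in cardiomyocytes, 197 FPKM at D15) and the pyruvate dehydrogenase kinase PDK1 (223 FPKM in cardiomyocytes, 140 FPKM at D15) had positive differences under 2-fold. All 21 were higher in cardiomyocytes than at D10, against 6209 of all 11797 members.

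Markers of pluripotency were low in both groups, with POU5F1 at 1.5 FPKM in cardiomyocytes and 1.6 FPKM at D15, and 0 of 3 that passed differed 2-fold. Of 23 HOX genes 3 passed, and none of these differed 2-fold, HOXB3 measuring 18.2 FPKM in cardiomyocytes and 28.3 FPKM at D15. Most HOX genes lay under the limit, and 21 of the 23 had a negative difference. In cardiomyocytes 3 reached 1 FPKM and at D15 12, against 16769 and 17927 of all genes. With a limit of 1 FPKM 4 HOX genes were lower and 0 higher (median -0.80). Among muscle splicing regulators 1 of 10 was higher (10%, against 11.8% of all members), the RNA-binding protein QKI (274 FPKM in cardiomyocytes, 117 FPKM at D15). Of 5 neural markers that passed, TUBB3 was higher and STMN2 lower (2.45 FPKM in cardiomyocytes, 9.98 FPKM at D15), and TUBB3 is one of the genes that alternate between columns.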
